A study of Homo sapiens with 9 samples.

Results

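Chondroitin sulfate is a chain of alternating glucuronic acid and N-acetylgalactosamine that cells build in the Golgi on the core proteins of proteoglycans and then decorate with sulfate. Chst15 encodes the enzyme that adds a 6-O sulfate to N-acetylgalactosamine already carrying a 4-O sulfate, which makes the doubly sulfated unit called chondroitin sulfate E. Chains of this kind are known to bind growth factors and other proteins at the surface of cells and in the matrix of tumors.

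A set of 10 genes of this pathway was examined by symbol, and 8 of the 10 had a row among the 17369 genes of the expression table used here. They were the sulfotransferases Chst15, Chst11, Chst12 and Chst3, the chain-building genes Chsy1 and Chpf, and the core proteins Vcan and Dcn. Chst7 and Bgn, also on the list, were not analysed here. Chst15 was chosen by its rise in FPKM in the tumors of adapted cells, so its difference from the original tumors is given as a description with no test. The others were listed as its partners in the pathway.

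The study asked how tumors of TBP3743 cells, a murine anaplastic thyroid cancer line, change when the cells are adapted to a second mouse strain. The line came from B6129SF1 mice with an activating Braf mutation and a Trp53 deletion, both restricted to the thyroid, and all 9 tumors carry that origin. RNA was sequenced from 3 thyroid tumors in each of 3 groups. Original TBP3743 cells in B6129SF1 mice formed the original/B6129SF1 group, adapted TBP3743 cells in B6129SF1 mice formed the adapted/B6129SF1 group, and the same adapted cells in C57BL/6 mice formed the adapted/C57BL/6 group. The adapted cells had gone through 3 rounds of passage under the skin of C57BL/6 mice. Hosts were female, 6 weeks old, and tumors were taken on day 14 after 100000 cells were placed in the thyroid. Adapted/C57BL/6 and original/B6129SF1 differ in both the cells and the host, so the part of each cannot be told apart in that comparison. The labels give the organism as Homo sapiens, but the build they name is mm10 and the gene symbols are those of the mouse. One line of adapted cells was used. The labels call the replicates biological and do not say that each tumor came from a separate mouse.

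Levels are FPKM, sequenced fragments scaled by transcript length and by library, which are scaled for length and may be compared between genes. Differences are on the log2(FPKM + 1) scale and come from limma, with p-values adjusted by the Benjamini-Hochberg method over the 10263 genes tested. A gene passed the test at an adjusted p under 0.05, and it was a DEG if its log2 difference also exceeded 1 in size. Read from the spacing of the lowest values, tumor depth was roughly 0.965 to 1.35 times that of original/B6129SF1 replicate 1. Of the markers of the labelled cell type, cancer epithelial cell, Krt8 and Krt18 were present at 110 FPKM or more in every tumor, while Epcam was at most 2.49 FPKM and Cdh1 at most 4.48 FPKM. The thyroid factor Nkx2-1 lay between 23.5 and 44.5 FPKM, and the thyroid genes Tshr, Slc5a5 and Foxe1 were below 0.25 FPKM in every tumor. Skeletal muscle markers summed to 30328 FPKM in adapted/B6129SF1 replicate 3 and to 4581 FPKM in adapted/C57BL/6 replicate 1, against 3.37 to 579 FPKM in the other 7 tumors. The differences of Vcan and Dcn are among the results given without both muscle-rich tumors as well.

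Chst15 was low in the tumors of original cells and well expressed in every tumor of adapted cells. In original/B6129SF1 its level was 0.777, 0.594 and 0.737 FPKM in replicates 1 to 3, a mean of 0.703 ± 0.0959 (SD, n = 3). In adapted/B6129SF1 it was 13.3, 7.72 and 9.44 FPKM, a mean of 10.2 ± 2.88 (SD, n = 3), and in adapted/C57BL/6 it was 10.1, 15.2 and 12.4 FPKM, a mean of 12.6 ± 2.57 (SD, n = 3). The lowest adapted tumor was therefore far above the highest original tumor. The means stood in a ratio of 14.5 for adapted/B6129SF1 to original/B6129SF1 and 17.9 for adapted/C57BL/6 to original/B6129SF1. On the log2(FPKM + 1) scale the differences were 2.68 and 2.98, a scale that understates the change of a gene near 0. With a pseudocount of 0.1 in place of 1 they were 3.65 and 3.97. Chst15 met the filter of at least 1 FPKM in at least 3 tumors only through the adapted tumors.

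The host strain could be tested for Chst15 independently of how it was chosen. Adapted/C57BL/6 exceeded adapted/B6129SF1 by 0.30 on the log2 scale (SE 0.20, 95% interval -0.16 to 0.75, limma adjusted p = 0.867), and the tumors of these groups overlapped. The interval includes no difference and a rise of 0.75, so a moderate difference between hosts was not detectable with 3 tumors a group.

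**Figure D1:**
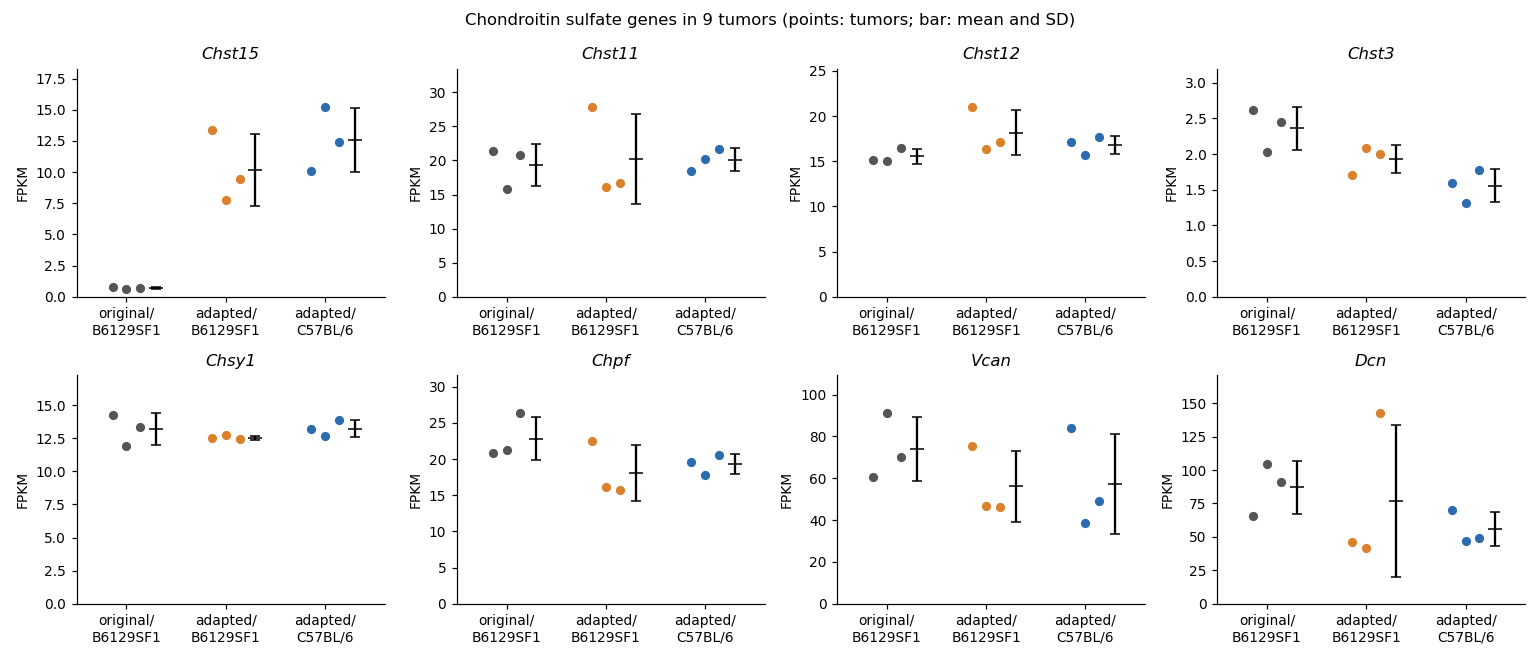
FPKM of the 8 listed chondroitin sulfate genes with a row, 1 panel a gene, in original/B6129SF1 (grey), adapted/B6129SF1 (orange) and adapted/C57BL/6 (blue); each point is a tumor and the bar is the mean and SD of 3 tumors. Chst15 lies below 0.8 FPKM in the original tumors and between 7.72 and 15.2 FPKM in the adapted tumors, while the groups of the other genes overlap or lie close together.

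Of the other 7 genes with a row, 0 passed the test in any of the 3 comparisons. Over all genes tested, 8.28% passed in adapted/B6129SF1 against original/B6129SF1, 6.75% in adapted/C57BL/6 against original/B6129SF1 and 0.0292% in adapted/C57BL/6 against adapted/B6129SF1. At an unadjusted p under 0.05 the counts among the 7 were 0, 1 and 0, against 26.5%, 24.4% and 6.27% of all genes. The groups did not overlap for 0 of the 7 in adapted/B6129SF1 and for 2 of the 7 in adapted/C57BL/6 against original/B6129SF1, compared with 29.6% and 32.8% of all genes. Their median log2 differences were -0.20 in adapted/B6129SF1 and -0.23 in adapted/C57BL/6 against original/B6129SF1, beside -0.03 and -0.03 over all genes tested. These comparisons share the original/B6129SF1 tumors.

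Chst11 and Chst12 encode the main enzymes that place the 4-O sulfate, the substrate on which the Chst15 enzyme acts. Chst11 was at 21.4, 15.8 and 20.8 FPKM in original/B6129SF1, at 27.9, 16.2 and 16.7 FPKM in adapted/B6129SF1 and at 18.5, 20.1 and 21.8 FPKM in adapted/C57BL/6. One adapted/B6129SF1 tumor, replicate 1, stood above the rest, and the 3 groups overlapped. The log2 difference from original/B6129SF1 was 0.03 in adapted/B6129SF1 (95% interval -0.44 to 0.50, adjusted p = 0.943) and 0.06 in adapted/C57BL/6 (95% interval -0.41 to 0.53, adjusted p = 0.886). Chst12 was at 15.2, 15.0 and 16.5 FPKM in original/B6129SF1, at 21.1, 16.4 and 17.1 FPKM in adapted/B6129SF1 and at 17.1, 15.7 and 17.6 FPKM in adapted/C57BL/6. It was highest in the same adapted/B6129SF1 tumor, and its groups overlapped as well. Its log2 difference was 0.21 in adapted/B6129SF1 (95% interval -0.04 to 0.46, adjusted p = 0.268) and 0.11 in adapted/C57BL/6 (95% interval -0.14 to 0.36, adjusted p = 0.599).

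Chst3 encodes the enzyme that places a 6-O sulfate on N-acetylgalactosamine without a 4-O sulfate. It was weakly expressed, at 2.61, 2.03 and 2.45 FPKM in original/B6129SF1, 1.70, 2.08 and 2.00 FPKM in adapted/B6129SF1 and 1.59, 1.31 and 1.78 FPKM in adapted/C57BL/6. All 3 adapted/C57BL/6 tumors lay below all 3 original/B6129SF1 tumors, whereas adapted/B6129SF1 and original/B6129SF1 overlapped. The log2 difference was -0.39 in adapted/C57BL/6 (95% interval -0.71 to -0.08), which did not pass after adjustment (adjusted p = 0.127), and -0.20 in adapted/B6129SF1 (95% interval -0.51 to 0.12, adjusted p = 0.395).

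Another gene for 4-O sulfation, Chst13, is outside the 10 listed genes and was also low in original tumors. Its level was 0.355, 0.490 and 0.475 FPKM in original/B6129SF1, 1.45, 1.43 and 2.01 FPKM in adapted/B6129SF1 and 1.27, 3.68 and 1.68 FPKM in adapted/C57BL/6. All 6 adapted tumors were above all 3 original tumors. Like Chst15, Chst13 met the filter only through them, so it had to differ and its log2 differences of 0.86 and 1.09 are given with no test.

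The transcripts of 5 sulfotransferases for the 4-O and 6-O positions, Chst11, Chst12, Chst13, Chst3 and Chst15, were added up. Chst7, not analysed here, and Chst14, listed with the dermatan sulfate genes, were left out. Chst14 averaged 19.8, 17.4 and 20.5 FPKM in original/B6129SF1, adapted/B6129SF1 and adapted/C57BL/6, so the shares below hold for these 5 genes only. Their sum came to 38.4 ± 3.92 FPKM in original/B6129SF1, 52.1 ± 11.6 FPKM in adapted/B6129SF1 and 53.3 ± 4.14 FPKM in adapted/C57BL/6 (SD, n = 3 each). Chst15 made up 1.93%, 1.75% and 1.80% of that sum in the original tumors. It made up 20.4%, 17.6% and 20.0% in adapted/B6129SF1, and 20.8%, 27.2% and 22.5% in adapted/C57BL/6. Without Chst15 the sums were 37.7 ± 3.83, 42.0 ± 8.81 and 40.7 ± 2.21 FPKM (SD, n = 3 each). These did not differ beyond the spread of the tumors by an exact two-sided permutation test, with p = 0.6 for adapted/B6129SF1 and p = 0.4 for adapted/C57BL/6 against original/B6129SF1 and p = 1 between the adapted groups. The smallest p that 3 tumors against 3 allow is 0.1. Most of the summed transcript came from Chst11 and Chst12 in all 9 tumors.

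**Figure D2:**
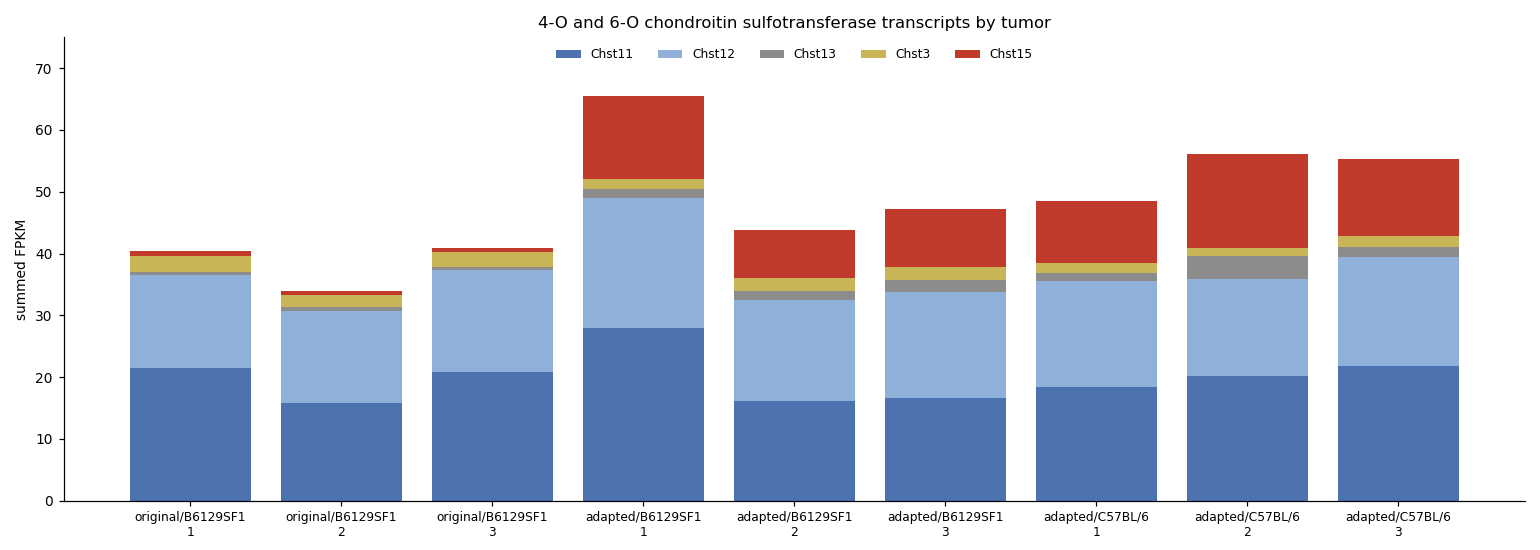
Summed FPKM of 5 genes for 4-O and 6-O sulfation of N-acetylgalactosamine in each of the 9 tumors, stacked by gene. The genes are Chst11, Chst12, Chst13, Chst3 and Chst15, and Chst14 and Chst7 are not included. The Chst15 segment is at most 1.93% of the bar in the original/B6129SF1 tumors and at least 17.6% in the adapted tumors, and the rest of the bar averages 37.7, 42.0 and 40.7 FPKM in original/B6129SF1, adapted/B6129SF1 and adapted/C57BL/6.

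Chsy1 and Chpf encode partners in the complex that lengthens the chain. Chsy1 was the steadiest of the listed genes, at 14.3, 12.0 and 13.4 FPKM in original/B6129SF1, 12.5, 12.7 and 12.4 FPKM in adapted/B6129SF1 and 13.2, 12.6 and 13.9 FPKM in adapted/C57BL/6. Its 9 values all lay between 12.0 and 14.3 FPKM, and the log2 differences from original/B6129SF1 were -0.06 in adapted/B6129SF1 (95% interval -0.27 to 0.14, adjusted p = 0.685) and 0.01 in adapted/C57BL/6 (adjusted p = 0.981). Chpf was at 20.9, 21.3 and 26.3 FPKM in original/B6129SF1, 22.5, 16.1 and 15.7 FPKM in adapted/B6129SF1 and 19.6, 17.9 and 20.5 FPKM in adapted/C57BL/6. Adapted/C57BL/6 lay wholly below original/B6129SF1, by a small margin, and adapted/B6129SF1 overlapped it through replicate 1. The log2 difference was -0.33 in adapted/B6129SF1 (95% interval -0.67 to 0.01, adjusted p = 0.204) and -0.23 in adapted/C57BL/6 (95% interval -0.57 to 0.12, adjusted p = 0.406).

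Vcan, which encodes versican, a large proteoglycan that binds hyaluronan, and Dcn, which encodes decorin, a small proteoglycan that binds collagen, had the highest levels of the listed genes. Vcan was at 60.7, 90.9 and 70.2 FPKM in original/B6129SF1, 75.6, 46.7 and 46.1 FPKM in adapted/B6129SF1 and 84.0, 38.4 and 48.9 FPKM in adapted/C57BL/6. In each adapted group 1 tumor, replicate 1, lay within the original range and the other 2 lay below it. The log2 difference was -0.41 in adapted/B6129SF1 (95% interval -1.10 to 0.28, adjusted p = 0.416) and -0.42 in adapted/C57BL/6 (95% interval -1.11 to 0.26, adjusted p = 0.435). With both muscle-rich tumors left out the differences of Vcan were -0.29 and -0.74, and neither passed the test.

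Dcn was at 65.3, 105 and 91.2 FPKM in original/B6129SF1, 46.2, 41.4 and 142 FPKM in adapted/B6129SF1 and 70.3, 47.2 and 49.5 FPKM in adapted/C57BL/6. Adapted/B6129SF1 replicate 3 held both the highest Dcn level of all 9 tumors and the highest muscle markers, and the fibroblast markers went both ways in it. Of these 9, 6 (Col1a1, Col1a2, Col3a1, Lum, Fap and Postn) had their highest level of the 9 tumors there, while Pdgfra, Pdgfrb and Thy1 had their lowest level of the 6 adapted tumors. The log2 difference was -0.39 in adapted/B6129SF1 (95% interval -1.36 to 0.58, adjusted p = 0.59) and -0.63 in adapted/C57BL/6 (95% interval -1.60 to 0.34, adjusted p = 0.409). Without adapted/B6129SF1 replicate 3 the difference for adapted/B6129SF1 was -0.95 (adjusted p = 0.0551). With adapted/C57BL/6 replicate 1 also left out it remained -0.95 and passed the test (adjusted p = 0.0386). In that fit the difference of Dcn for adapted/C57BL/6 was -0.81 and did not pass. These are whole tumors, so fewer cells of a type and less RNA per cell cannot be told apart.

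No difference between the hosts was detectable for these 7 genes. Their log2 differences between adapted/C57BL/6 and adapted/B6129SF1 ran from -0.24 for Dcn to 0.11 for Chpf, with adjusted p-values between 0.867 and 0.996. With both muscle-rich tumors left out, the difference of Vcan moved from -0.01 to -0.45 and that of Dcn from -0.24 to 0.14, and neither passed.

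By level, the listed genes kept much of their order across the groups, though Chst15 was not the only gene to change place. In original/B6129SF1 the means ran from Dcn at 87.0 and Vcan at 73.9 through Chpf at 22.8, Chst11 at 19.4, Chst12 at 15.5, Chsy1 at 13.2 and Chst3 at 2.36 to Chst15 at 0.703 FPKM. In adapted/B6129SF1 Chst15, at 10.2 FPKM, was above Chst3 at 1.93 FPKM and next below Chsy1 at 12.6 FPKM. In adapted/C57BL/6 Chst15 at 12.6 FPKM and Chsy1 at 13.2 FPKM were within their spread of each other. Chpf, at 18.1 FPKM in adapted/B6129SF1, was below Chst11 at 20.2 and Chst12 at 18.2 FPKM. In adapted/C57BL/6 Chpf at 19.3 FPKM was below Chst11 at 20.1 FPKM, and Dcn at 55.7 FPKM was below Vcan at 57.1 FPKM. The tumors overlapped in every group for Dcn and Vcan, as they did for Chst11 and Chpf.

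The wider pathway was covered by 9 lists, from the sugar linkage that starts a chain to its breakdown in the lysosome. Beyond the listed genes these held 77 genes, of which 69 had a row and 51 were tested. In adapted/B6129SF1 against original/B6129SF1 8 of the 51 passed, 4 higher and 4 lower, where 4.37% of all genes passed as higher and 3.92% as lower. In adapted/C57BL/6 against original/B6129SF1 7 passed, 4 higher and 3 lower, where 3.99% and 2.77% of all genes did. Of the 51, 2 (Chst13 and Hapln4) were under 1 FPKM in every original tumor and tested only because they were higher in adapted tumors. Without such genes 7 of 49 passed in adapted/B6129SF1, 3 higher and 4 lower, and 5 of 49 in adapted/C57BL/6, 2 higher and 3 lower, against 7.89% and 6.3% of all genes. Each comparison had 3 DEGs among the 51, Chst13 being 1 of those in adapted/C57BL/6, and 3.22% and 3.09% of all genes tested were DEGs. Between adapted/C57BL/6 and adapted/B6129SF1 0 of the 51 passed in limma, and 3 had an unadjusted p under 0.05. The shares of all genes were 0.0292% and 6.27%. The counts depended on single tumors. In adapted/B6129SF1 the 8 became 1 without original/B6129SF1 replicate 1, 5 without original/B6129SF1 replicate 2 and 1 without original/B6129SF1 replicate 3. It became 2, 3 and 4 without adapted/B6129SF1 replicates 1, 2 and 3, and 3 without adapted/C57BL/6 replicate 3. In adapted/C57BL/6 the 7 became 3, 3 and 1 without original/B6129SF1 replicates 1, 2 and 3, and 2 and 1 without adapted/C57BL/6 replicates 2 and 3. The share of all genes that passed also fell in these fits, to between 2.07% and 6.66% in adapted/B6129SF1 and between 1.98% and 4.29% in adapted/C57BL/6.

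**Figure D3:**
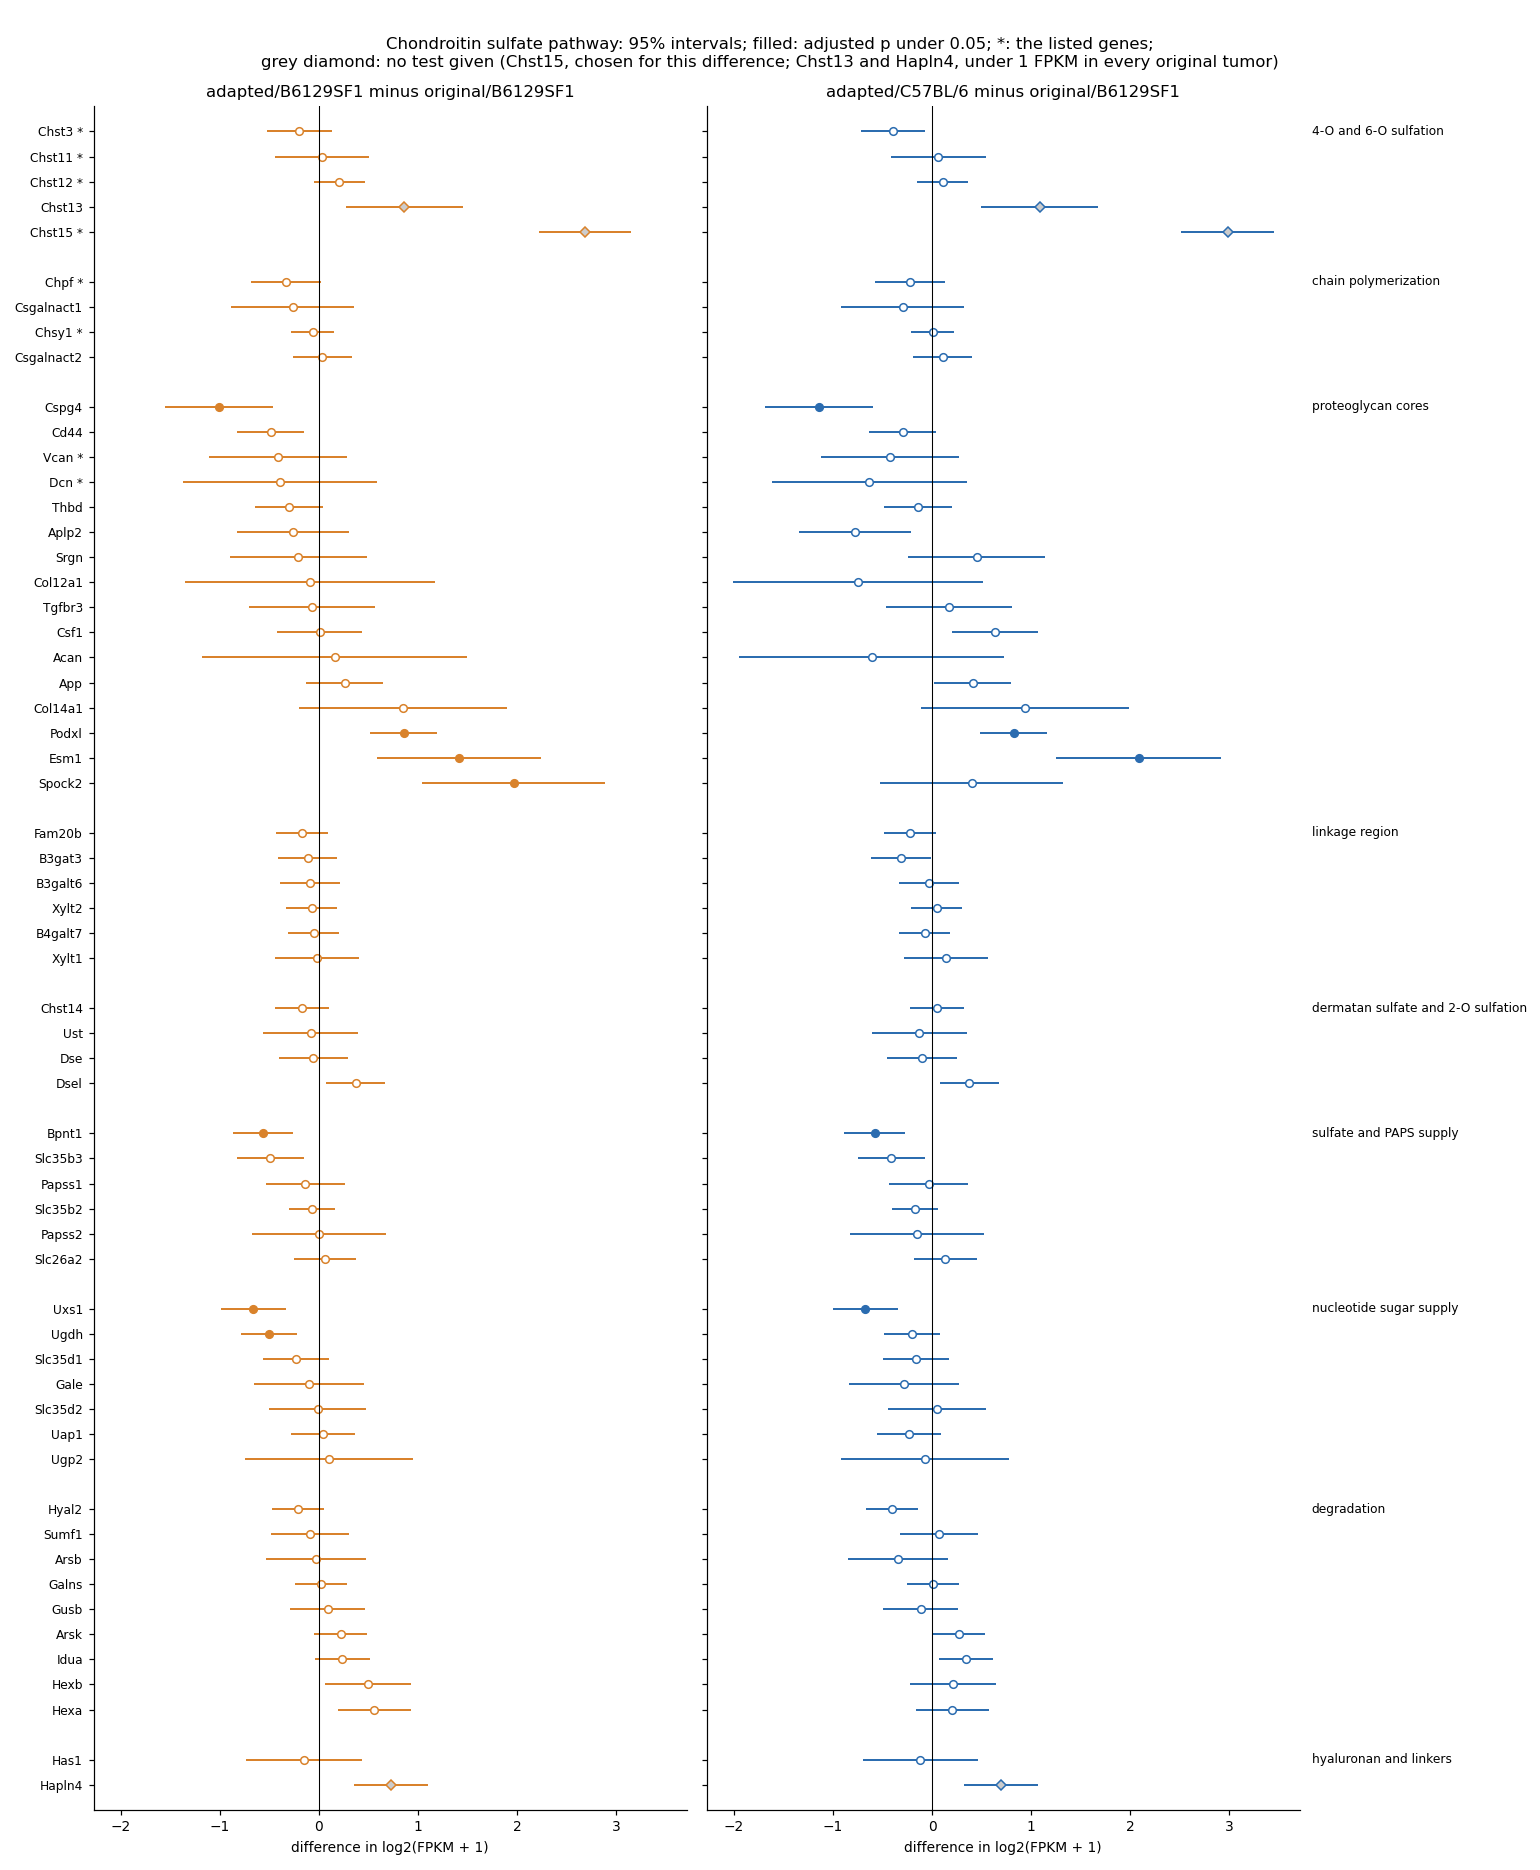
Difference in log2(FPKM + 1) from original/B6129SF1, with 95% intervals, for each tested gene of the 9 pathway lists, in adapted/B6129SF1 (left) and adapted/C57BL/6 (right); filled points passed the test, open points did not, the asterisk marks the listed genes, and grey diamonds are Chst15, Chst13 and Hapln4, shown without a test. The intervals of the grey diamonds take no account of how those genes were chosen or met the filter, and are not a test. Apart from Chst15 at 2.68 and 2.98, most genes lie within 1 unit of 0, with Esm1 and Spock2 the farthest above and Cspg4 the farthest below in adapted/B6129SF1.

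Of 6 genes tested for the supply of sulfate and 7 for nucleotide sugars, 1 and 2 passed in adapted/B6129SF1 and 1 and 1 in adapted/C57BL/6. Over all genes tested, 8.28% and 6.75% passed in these comparisons, 3.92% and 2.77% as lower. The genes of these lists that passed were lower than in original/B6129SF1. Uxs1, which makes the UDP-xylose that starts the linkage, fell in both comparisons. Its level was 45.4, 42.9 and 32.4 FPKM in original/B6129SF1, 25.1, 23.2 and 26.1 FPKM in adapted/B6129SF1 and 23.3, 22.7 and 28.0 FPKM in adapted/C57BL/6. The groups did not overlap, and the log2 differences were -0.66 (SE 0.14, adjusted p = 0.0251) and -0.67 (SE 0.14, adjusted p = 0.0262). Without original/B6129SF1 replicate 1 they were -0.57 and -0.58 (adjusted p = 0.0855 and 0.0862). The calls also ended without original/B6129SF1 replicate 2 (adjusted p = 0.0637 and 0.0746), and the call in adapted/B6129SF1 ended without its replicate 1 or 2 (at most 0.0754). The call in adapted/C57BL/6 ended without any 1 of its own 3 tumors (at most 0.0808).

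Ugdh makes the UDP-glucuronic acid that enters every second position of the chain. It was at 74.1, 79.5 and 78.4 FPKM in original/B6129SF1, 58.4, 47.6 and 57.5 FPKM in adapted/B6129SF1 and 57.6, 73.5 and 71.3 FPKM in adapted/C57BL/6. It fell in adapted/B6129SF1, by 0.50 on the log2 scale (SE 0.12, adjusted p = 0.0386), while the log2 difference in adapted/C57BL/6 was -0.20 (adjusted p = 0.348). The difference between the adapted groups was 0.30 (adjusted p = 0.778), so a difference between hosts was not shown. The fall in adapted/B6129SF1 passed in only 2 of the 9 fits without 1 tumor, those without adapted/C57BL/6 replicate 1 or 2, and its adjusted p reached 0.115 without original/B6129SF1 replicate 3.

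Bpnt1 encodes a phosphatase that removes the by-product left by sulfate transfer from the donor PAPS. It was at 19.7, 16.6 and 18.5 FPKM in original/B6129SF1, 12.7, 13.0 and 10.5 FPKM in adapted/B6129SF1 and 13.1, 10.1 and 12.6 FPKM in adapted/C57BL/6. It fell in adapted/B6129SF1 by 0.56 (SE 0.13, adjusted p = 0.0343) and in adapted/C57BL/6 by 0.58 (SE 0.13, adjusted p = 0.0347) on the log2 scale, with no overlap of either group with original/B6129SF1. Each call passed in 3 of the 9 fits without 1 tumor. The call in adapted/B6129SF1 ended without original/B6129SF1 replicate 1 or 3, any adapted/B6129SF1 tumor or adapted/C57BL/6 replicate 3 (adjusted p at most 0.114), and the call in adapted/C57BL/6 ended without any original/B6129SF1 or any adapted/C57BL/6 tumor (at most 0.112). Papss1, the more abundant of the enzymes that make PAPS, lay between 55.2 and 82.7 FPKM over the 9 tumors, and its log2 differences from original/B6129SF1 were -0.14 (adjusted p = 0.636) and -0.03 (adjusted p = 0.93). Slc35b2, which carries PAPS into the Golgi, averaged 27.3 ± 2.73, 26.0 ± 1.90 and 24.1 ± 0.913 FPKM (SD, n = 3 each), with log2 differences of -0.07 (adjusted p = 0.689) and -0.17 (adjusted p = 0.322). Slc35b3, the other PAPS carrier of the list, averaged 19.1 ± 2.68, 13.3 ± 2.00 and 14.1 ± 1.84 FPKM (SD, n = 3 each). Neither adapted group overlapped original/B6129SF1 for Slc35b3. Its log2 differences of -0.49 and -0.41 did not pass in limma (adjusted p = 0.0742 and 0.127).

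Of the core protein genes 16 were tested, Vcan and Dcn included, and those that passed went in both directions. Cspg4, which encodes the membrane proteoglycan NG2, was at 7.16, 6.54 and 10.2 FPKM in original/B6129SF1, 4.22, 3.01 and 3.03 FPKM in adapted/B6129SF1 and 4.39, 2.04 and 2.94 FPKM in adapted/C57BL/6. It fell by 1.01 (SE 0.24, adjusted p = 0.0354) in adapted/B6129SF1 and by 1.14 (SE 0.24, adjusted p = 0.0262) in adapted/C57BL/6 on the log2 scale, and every adapted tumor lay below every original tumor. Without original/B6129SF1 replicate 3 the differences were -0.84 (adjusted p = 0.116) and -0.97 (adjusted p = 0.0931). The calls also ended without original/B6129SF1 replicate 1 and without adapted/C57BL/6 replicate 3 in both comparisons, without original/B6129SF1 replicate 2 and adapted/B6129SF1 replicate 2 or 3 in adapted/B6129SF1, and without adapted/C57BL/6 replicate 2 in adapted/C57BL/6 (adjusted p at most 0.101).

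Esm1, which encodes the secreted dermatan sulfate proteoglycan endocan, known from endothelial cells, had the largest log2 difference of the pathway lists in adapted/C57BL/6 after Chst15. It was at 8.77, 5.20 and 7.24 FPKM in original/B6129SF1, 28.3, 13.7 and 21.0 FPKM in adapted/B6129SF1 and 19.4, 50.6 and 35.3 FPKM in adapted/C57BL/6. It rose by 1.41 (SE 0.36, adjusted p = 0.0468) and by 2.08 (SE 0.36, adjusted p = 0.0129) on the log2 scale, with no overlap with original/B6129SF1. The rise in adapted/B6129SF1 did not pass without any 1 of the original/B6129SF1 tumors, without adapted/B6129SF1 replicate 1 or 3 or without adapted/C57BL/6 replicate 3 (adjusted p at most 0.118), and the rise in adapted/C57BL/6 did not pass without original/B6129SF1 replicate 3 or adapted/C57BL/6 replicate 3 (0.0515 and 0.0606). The 5 endothelial markers Pecam1, Cdh5, Kdr, Tek and Vwf summed to 39.7 to 56.1 FPKM in original/B6129SF1, 43.2 to 67.3 FPKM in adapted/B6129SF1 and 49.0 to 62.7 FPKM in adapted/C57BL/6. Of the 5, 0 passed in limma in either comparison, where 8.28% and 6.75% of all genes did. At an unadjusted p under 0.05 there were 0, against 26.5% and 24.4% of all genes. The part of endothelial cells in the level of Esm1 was not tested.

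Podxl, which encodes the sialomucin podocalyxin of the cell surface, rose in both comparisons. It was at 6.97, 6.45 and 5.61 FPKM in original/B6129SF1 and between 10.5 and 15.0 FPKM in the adapted tumors, with means of 12.4 ± 2.29 in adapted/B6129SF1 and 12.0 ± 1.31 in adapted/C57BL/6 (SD, n = 3 each). All 6 adapted tumors exceeded all 3 original tumors, and the log2 differences were 0.85 (SE 0.14, adjusted p = 0.0126) and 0.83 (SE 0.14, adjusted p = 0.0134). Of the fits without 1 tumor, 8 of 9 kept each call, and without original/B6129SF1 replicate 3 the adjusted p was 0.0557 and 0.0591.

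Spock2, which encodes the matrix proteoglycan testican-2, was high in adapted/B6129SF1 but not in adapted/C57BL/6. It was at 0.420, 2.42 and 0.447 FPKM in original/B6129SF1, 10.5, 3.92 and 6.36 FPKM in adapted/B6129SF1 and 1.82, 1.84 and 1.01 FPKM in adapted/C57BL/6. It reached 1 FPKM in only 1 of the 3 original tumors, and in 4 of the 6 tumors outside adapted/B6129SF1, so it met the filter without that group. It rose in adapted/B6129SF1 by 1.96 (SE 0.40, adjusted p = 0.0233) on the log2 scale, and its difference in adapted/C57BL/6 was 0.40 (SE 0.40, adjusted p = 0.593). The difference between the adapted groups, -1.56 (SE 0.40), had an unadjusted p of 0.00384 and did not pass after adjustment (adjusted p = 0.548). The rise in adapted/B6129SF1 did not pass without original/B6129SF1 replicate 1 or 3 or without adapted/B6129SF1 replicate 1 or 3 (adjusted p at most 0.0846).

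Hapln4 encodes a link protein that joins hyaluronan to proteoglycans, and its level was low in all tumors. It was at 0.562, 0.655 and 0.408 FPKM in original/B6129SF1, 1.59, 1.74 and 1.34 FPKM in adapted/B6129SF1 and 1.22, 1.89 and 1.40 FPKM in adapted/C57BL/6. All 6 adapted tumors lay above all 3 original tumors. It met the filter only through the adapted tumors, as Chst15 and Chst13 did, so its log2 differences of 0.73 and 0.69 are given with no test.

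**Figure D4:**
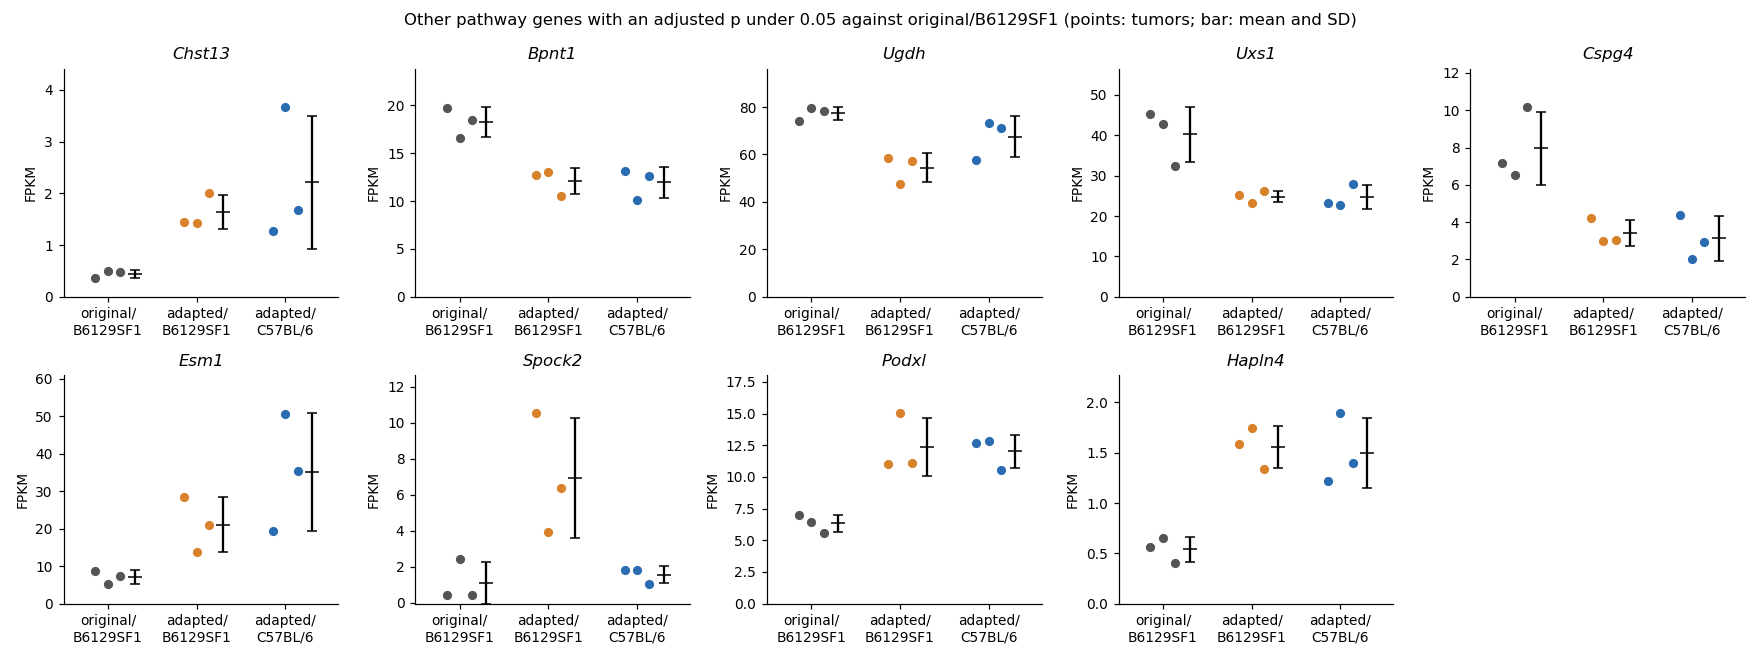
FPKM of the 9 further genes of the pathway that had an adjusted p under 0.05 in at least 1 comparison with original/B6129SF1, 1 panel a gene; points are tumors and the bar is the mean and SD of 3 tumors in each group. Bpnt1, Uxs1 and Cspg4 are lower in adapted tumors, Ugdh is lower past the test in adapted/B6129SF1 alone, Esm1 and Podxl are higher in adapted tumors, Chst13 and Hapln4 are below 1 FPKM in every original tumor and were tested only through the adapted tumors, and Spock2 is high in adapted/B6129SF1, at 3.92 to 10.5 FPKM.

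The most abundant of the other core proteins did not pass. Srgn, which encodes the serglycin of blood cell granules, averaged 166 ± 42.0, 147 ± 53.0 and 223 ± 36.6 FPKM (SD, n = 3 each) in original/B6129SF1, adapted/B6129SF1 and adapted/C57BL/6, with log2 differences of -0.21 (adjusted p = 0.69) and 0.45 (adjusted p = 0.401) from original/B6129SF1. Csf1, a growth factor of macrophages that can carry a chondroitin sulfate chain, lay between 116 and 135 FPKM in original/B6129SF1, 117 and 151 FPKM in adapted/B6129SF1 and 151 and 252 FPKM in adapted/C57BL/6, with differences of 0.01 (adjusted p = 0.986) and 0.63 (adjusted p = 0.0772).

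Genes for the linkage region, for epimerization to dermatan sulfate and for breakdown of the chain had 0 passing in either comparison with original/B6129SF1 in limma, of 6, 4 and 9 tested. At an unadjusted p under 0.05 there were 0 and 1 for the linkage region, 1 and 1 for dermatan sulfate and 2 and 3 for breakdown, where 26.5% and 24.4% of all genes had such a p. B3gat3, which adds the glucuronic acid that completes the linkage, averaged 28.4 ± 3.07, 26.1 ± 2.47 and 22.6 ± 2.91 FPKM (SD, n = 3 each), and its log2 difference in adapted/C57BL/6 was -0.31 (adjusted p = 0.175). Dsel, a relative of the dermatan sulfate epimerase Dse, averaged 2.27 ± 0.364, 3.22 ± 0.303 and 3.24 ± 0.0554 FPKM (SD, n = 3 each), and its log2 differences were 0.37 (adjusted p = 0.105) and 0.38 (adjusted p = 0.109). Hexa, a subunit of the lysosomal hexosaminidase, averaged 72.9 ± 10.6, 107 ± 7.14 and 84.7 ± 17.1 FPKM (SD, n = 3 each), with differences of 0.56 (adjusted p = 0.0653) and 0.20 (adjusted p = 0.475). Csgalnact1 and Csgalnact2, which add the first N-acetylgalactosamine, had log2 differences between -0.30 and 0.11 and adjusted p-values of at least 0.549.

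Markers of other cell types moved with the groups to different degrees. The T cell markers with a row summed to 2.72 to 3.87 FPKM in original/B6129SF1, 4.61 to 21.9 FPKM in adapted/B6129SF1 and 14.4 to 22.2 FPKM in adapted/C57BL/6, and 1 of 5 tested, Cd3g, passed in each comparison, where 8.28% and 6.75% of all genes did. All 5 had an unadjusted p under 0.05 in both comparisons, against 26.5% and 24.4% of all genes, but Cd3d, Cd3e and Cd4 were under 1 FPKM in every original tumor and met the filter only through the adapted tumors. Adapted/B6129SF1 replicate 1 had the lowest of these sums among the adapted tumors, 4.61 FPKM, and a Chst15 level of 13.3 FPKM, the second highest of all tumors. Leukocyte markers summed to 359 to 444 FPKM in original/B6129SF1, 592 to 719 FPKM in adapted/B6129SF1 and 364 to 665 FPKM in adapted/C57BL/6, with 0 of 5 passing in limma and 5 and 3 at an unadjusted p under 0.05, beside the same shares of all genes. The adapted/C57BL/6 tumor with a leukocyte sum of 364 FPKM, replicate 2, had the highest Chst15 level, 15.2 FPKM. Fibroblast markers summed to 912 to 1163 FPKM, 1075 to 1749 FPKM and 1168 to 1409 FPKM. Of 9 tested, Fap passed in both comparisons and Thy1 in adapted/C57BL/6, where 8.28% and 6.75% of all genes passed. At an unadjusted p under 0.05 there were 4 and 4 of the 9, against 26.5% and 24.4% of all genes. Their log2 differences went both ways, with 7 and 6 positive and 2 and 3 negative, and Lum and Col3a1 were negative in both comparisons. Macrophage markers summed to 906 to 1268 FPKM, 1315 to 1632 FPKM and 746 to 1728 FPKM. Of 5 tested, 0 passed in limma and 1 and 0 had an unadjusted p under 0.05, beside the same shares of all genes. Mast cell markers summed to 12.3 to 23.3 FPKM in original/B6129SF1, 20.6 to 93.1 FPKM in adapted/B6129SF1 and 9.35 to 18.3 FPKM in adapted/C57BL/6, highest in adapted/B6129SF1 replicate 3. Of these 5 markers 0 passed in limma in any comparison, and 3, 0 and 4 had an unadjusted p under 0.05 in adapted/B6129SF1 and adapted/C57BL/6 against original/B6129SF1 and between the adapted groups, where the share of all genes was 26.5%, 24.4% and 6.27%. The 5 B cell markers stayed below 1 FPKM each in every tumor. Of the 5 epithelial markers 1 passed in each comparison, where 8.28% and 6.75% of all genes did. At an unadjusted p under 0.05 there were 2 and 2 of the 5, against 26.5% and 24.4% of all genes. The marker that passed was Krt8, which fell in adapted/B6129SF1 by 1.32 (adjusted p = 0.0189) and in adapted/C57BL/6 by 1.12 (adjusted p = 0.0346) on the log2 scale. The log2 differences of the 5 were all negative in adapted/B6129SF1, while in adapted/C57BL/6 they were negative for 2, Krt8 and Krt18, and positive for 3, Cdh1 at 0.36 (adjusted p = 0.438), Epcam and Krt19. Beyond these values, the part of the mix of cells in the level of Chst15 was not tested.

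**Figure D5:**
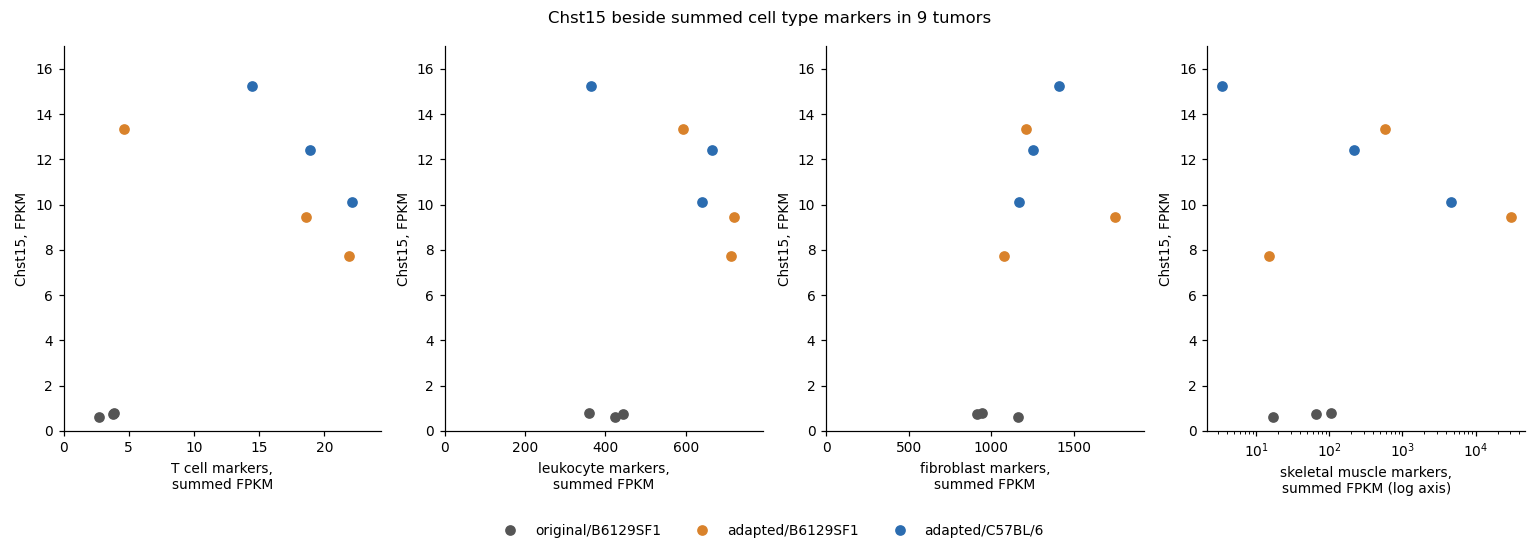
Chst15 level against the summed FPKM of T cell, leukocyte, fibroblast and skeletal muscle markers in the 9 tumors (the muscle axis is logarithmic); each point is a tumor, colored by group. The 3 original/B6129SF1 tumors lie below 0.8 FPKM of Chst15, and the adapted tumors lie above 7 FPKM. On the T cell axis the original and adapted tumors do not overlap. These sums run from 2.72 to 3.87 FPKM in original tumors and from 4.61 to 22.2 FPKM in adapted tumors.

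Among all genes tested, the 5 whose pattern over the 9 tumors lay closest to that of Chst15 were Clec1a, Hoxa10, Nsg1, Crmp1 and Ltbp2. The measure was the root mean square difference between log2(FPKM + 1) values centred on each gene's mean, and it was 0.251, 0.261, 0.270, 0.344 and 0.388 for these genes. Clec1a, a C-type lectin-like receptor gene, was at 0.939 to 1.96 FPKM in original/B6129SF1 and at 11.4 to 19.1 FPKM in the adapted tumors. Hoxa10, a homeobox transcription factor gene, was at 1.29 to 1.65 FPKM in original/B6129SF1 and at 10.3 to 19.9 FPKM in the adapted tumors. This likeness is a description over tumors that share their groups, and none of the other listed genes was among the 5.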

How the data were processed

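RNA of 9 tumors, 3 in each of original/B6129SF1, adapted/B6129SF1 and adapted/C57BL/6, was grouped by the titles of the samples. The authors aligned reads to mm10 with HISAT2 after FastQC, and the deposited values are FPKM made with Cuffnorm. They are not counts, so the absolute depth is unknown and the counting error of low values could not be estimated. The number of tumors also limits the precision. The gene annotation is not given in the sources used here.

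Values were taken as log2(FPKM + 1). The 10263 of 17369 genes that reached 1 FPKM in 3 or more tumors were fitted in 1 model of the 3 groups with limma 3.58.1 in R 4.3.3 (lmFit, eBayes with a mean-variance trend), with Benjamini-Hochberg adjustment over all genes tested. The code was tested on simulated data. Single values were compared by exact two-sided permutation tests. The members and the gene lists were chosen with earlier results of these data known. Named genes are the 10 listed, list genes that passed or ranked among the 4 highest of a list, markers, and the 5 closest in pattern to Chst15. The rank of the fibroblast markers beside Dcn was counted after their values were seen. A mouse genome was not used here, so positions and sequences are not given. Other scalings, filters, pseudocounts, a replicate block, tumor weights and each tumor left out were tried as alternatives. Leaving out both muscle-rich tumors was chosen after seeing the data.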

Additional observations from a re-analysis of the deposited data

How the results depend on the processing

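Only 3 tumors a group limit the precision, and most calls of single pathway genes near the threshold depended on 1 tumor. Over the counts of passing genes, 103 of 126 alternative values stayed within 1.5 times and 23 did not. Of the 7 listed genes besides Chst15, 1 passed in adapted/B6129SF1 against original/B6129SF1 under tumor weights (Chpf) and 1 with both muscle-rich tumors left out (Dcn), and 1 passed in adapted/C57BL/6 under tumor weights (Chst3); leaving out single tumors gave 0 throughout. The 8 pathway genes in adapted/B6129SF1 became 5 with no filter, 4 with only the groups compared, 4 with both muscle-rich tumors left out and 3 with a log2 difference above 1 also required, and ran from 1 to 10 without 1 tumor. The 7 in adapted/C57BL/6 became 15 with tumor weights and 3 with the larger difference required, and ran from 1 to 7 without 1 tumor.

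Over all genes tested, the 850 passing in adapted/B6129SF1 became 1582 with tumor weights, 493 with only the groups compared, 477 with both muscle-rich tumors left out and 330 with the larger difference required (211 to 808 without 1 tumor). The 693 in adapted/C57BL/6 became 2466 with tumor weights and 317 with the larger difference required (203 to 819). The 3 between the adapted groups became 0 with only the groups compared and 1 with no filter (0 to 6). The cause was not tested. Rescaling by the median of ratios or by quantiles moved the median of all genes by under 0.1.

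Same-numbered tumors did not deviate together (r from -0.388 to 0.614, over 0.1 in 3 of 9 pairs), and a tumor correlated best with its own number in 5 of 18 cases. With a replicate block, 444, 388 and 0 genes passed in the 3 comparisons, the pathway genes became 2 and 3, and 0 of the 7 listed genes passed.

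Differences near 0 changed sign. For Chst11 in adapted/B6129SF1 the log2 difference was -0.17 with tumor weights (-0.21 to 0.16 without 1 tumor), in adapted/C57BL/6 it ran from -0.0701 to 0.14 without 1 tumor, and for Chsy1 in adapted/C57BL/6 it was -0.00255 with quantile scaling (-0.0593 to 0.0603). Between the adapted groups, Chst11 was at -0.0223 with both muscle-rich tumors left out (-0.10 to 0.28), Chst12 ran from -0.17 to 0.00595, Vcan was at 0.0528 with tumor weights (-0.33 to 0.23), and Dcn was at 0.0230 with tumor weights and 0.14 with both muscle-rich tumors left out (-0.56 to 0.32). At a filter of 5 FPKM Chst3, Chst13, Spock2 and Hapln4 gave no value. The difference of Chst15 from original/B6129SF1 stayed between 2.49 and 2.85 in adapted/B6129SF1 and between 2.84 and 3.12 in adapted/C57BL/6 without 1 tumor.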

Other observations

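The building and sulfation of heparan sulfate, the sister chain built on the same linkage, were covered together by 22 genes. Of these, 21 had a row and 12 were tested, and 0 passed in limma in any comparison. At an unadjusted p under 0.05 there were 1, 4 and 2 in adapted/B6129SF1 against original/B6129SF1, adapted/C57BL/6 against original/B6129SF1 and adapted/C57BL/6 against adapted/B6129SF1, where 26.5%, 24.4% and 6.27% of all genes had such a p. Ext1 and Ext2, which build the heparan sulfate chain, lay between 45.5 and 80.3 FPKM and between 33.7 and 49.7 FPKM over the 9 tumors. Extl3, which starts that chain, was at 17.5, 19.5 and 23.3 FPKM in original/B6129SF1, 36.3, 33.0 and 22.0 FPKM in adapted/B6129SF1 and 32.1, 29.4 and 28.6 FPKM in adapted/C57BL/6, with log2 differences of 0.55 (adjusted p = 0.0962) and 0.57 (adjusted p = 0.0986).

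Hs3st6, a heparan sulfate 3-O-sulfotransferase gene, was below the filter. It was at 0.298, 0.704 and 0.757 FPKM in original/B6129SF1, 0.0389, 0.155 and 0.0398 FPKM in adapted/B6129SF1 and 0.0318, 0.0433 and 0.0349 FPKM in adapted/C57BL/6. The groups did not overlap with original/B6129SF1, and the exact permutation test gave p = 0.1 in both comparisons, the smallest that 3 tumors against 3 allow. Hs3st6 was named after its values were seen. Of the 7 other carbohydrate sulfotransferase genes of the Chst family, only Chst1 and Chst2 were tested. In limma 0 passed in any comparison, with 0 at an unadjusted p under 0.05, where 26.5%, 24.4% and 6.27% of all genes had such a p.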
